A study of Brassica juncea with 18 samples.

Results

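Dehydrins and early-responsive to dehydration (ERD) proteins were followed in cold-stressed siliques, the seed pods of Indian mustard (*Brassica juncea*). The members were the transcripts whose best protein hit named a dehydrin, COR47, an ERD protein with a number, or a protein early-responsive to dehydration. They came to 17 transcripts of 10 unigenes (a unigene groups the assembled isoforms of a gene) among the 13342 transcripts of 9446 unigenes with expression values. The same words found 75 transcripts of 39 unigenes among the 133641 transcripts of the assembly. The expression table held 22.7% of those 75 transcripts, against 9.98% of the whole assembly, and only transcripts that the authors had called different between some pair of libraries entered it.

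Cold-treated siliques came from self-pollinated branches of field-grown *B. juncea* var. Varuna that were cut, stood in water and kept at 4 °C for 6 h or 12 h. Control siliques came from cut branches that stood in water in the field, so all the groups were cut. How long the control branches stood was not given in the sources used here. Time since cutting therefore cannot be told apart from the cold, nor from its duration of 6 h or 12 h. The cold-treated branches were in a cold chamber with light maintained. Chamber against field therefore cannot be told apart from the cold. Whole siliques were taken every 5 days, from 5 DAP (days after pollination) to 30 DAP, with 1 library per stage and duration, 18 in all. The 6 stages therefore served as the replicates of a duration, and p-values measure only the spread between these libraries.

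Each library held seed, embryo and pod wall together, so fewer cells of a type and less RNA per cell cannot be told apart. The hour of harvest was not given in the sources used here, and it cannot be told apart from the cold. The 40 transcripts of the seed and embryo marker list (storage proteins, oleosins and the like) were detected as a list in every library, with summed levels of 198 to 1786 FPKM in control, 145 to 1231 FPKM at 6 h and 124 to 857 FPKM at 12 h. The sum was below the control of its stage at 5 of 6 stages at both durations, and above it at 25 DAP. The 5 pod wall marker transcripts were those of chloroplast proteins, taken as pod wall markers without a check of their tissue. Their sum was 38.1 to 90.1 FPKM in control, with a median of 70.1. They summed to 18.4 to 53.2 FPKM at 6 h (median 39.6) and to 9.54 to 105 FPKM at 12 h (median 29.5). They too were below control at 5 of 6 stages at each duration, the exceptions being 15 DAP at 6 h and 25 DAP at 12 h. The 23 pollen and anther marker transcripts summed to 27.1 to 221 FPKM in control, 21.4 to 222 FPKM at 6 h and 20.4 to 196 FPKM at 12 h, and the part of these lists in the results was not tested. The libraries had 11194 to 12462 transcripts above 0, and their summed FPKM ran from 71973 to 188212. FPKM is a fragment number scaled to transcript length and library size, so levels can be compared between transcripts. The files gave no read counts, and the counting error of low values is unknown.

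The 5 DAP library of 6 h stood apart. It held 283 transcripts at 1 FPKM or more that stayed under 0.25 FPKM in the other 17 libraries, and 2 of them were members. Of the 283, 134 carried fungal locus tags in their best hit. Its nearest library was the 5 DAP library of 12 h (Spearman's rho 0.798 across transcripts), but that value did not set it apart, since both other 5 DAP libraries had 0.800. Tests against control at 6 h and 12 h whose outcome rested on this library are given with and without it. Correlations are given with it only.

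Dehydrins are very hydrophilic late embryogenesis abundant proteins that bind water, membranes and other proteins, and plants accumulate them in maturing seeds and under cold, drought and salt. In Arabidopsis, COR47 is a dehydrin switched on in cold by the CBF/DREB1 activators, which bind the C-repeat element of its promoter. The ERD genes were first isolated from Arabidopsis as transcripts that accumulate early in drying plants, and they code for unrelated proteins, among them dehydrins, membrane proteins, sugar transporters and a methyltransferase-like protein.

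The assembly and the expression table covered these families unevenly. The table held 3 of 6 dehydrin transcripts, 2 of 3 transcripts of dehydrin-like proteins 2a or 3, all 3 ERD7, 4 of 10 ERD4, 1 of 2 ERD3 and 4 of 25 ERD6 sugar transporter transcripts. The 2 ERD15 transcripts, the 1 ERD5 transcript and 2 unnumbered ERD transcripts of the assembly had no expression values and were not analysed here. The remaining 21 matches were EXS domain proteins, which share only the letters ERD1 with the dehydration genes, and none of them was in the table.

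The labels were checked against the annotation of each transcript. The 3 ERD7 isoforms carried the senescence domain of that family, the 3 ERD4 isoforms and the putative ERD4 carried the DUF221 membrane domain, ERD3 carried a methyltransferase domain, and both isoforms of the ERD6-like 3 sugar transporter carried a sugar transporter domain. No transcript of the table carried a Pfam dehydrin domain (0 of 13342), so the dehydrins are called so from their best hits alone. Those hits read only dehydrin, and the name COR47 for c56112_g1 comes from the study's list of primers, which gives it to c56112_g1_i1. The transcript named ERD6-like 6 matched its protein over 37 amino acids and carried a domain of ribosomal protein S4 but no sugar transporter domain, which goes against its name. The transcript named ERD6-like 12 was 337 bp long, matched over 38 amino acids and had no domain. Gene ontology terms placed 4 of the 17 members under response to cold (3.45% of all transcripts), 5 under response to water deprivation (4.02%), 8 under response to abscisic acid (3.40%) and 8 under response to salt (4.74%).

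Most members were higher in cold-treated siliques at both durations. At 6 h, 12 of the 17 transcripts, from 6 of the 10 unigenes, were higher than control at an adjusted p under 0.05 (limma on log2(FPKM + 1) with stage as a block, Benjamini-Hochberg adjustment over all 13342 transcripts), and 1 was lower. Of all transcripts, 12.6% were higher and 9.21% lower at 6 h. At 12 h, 13 members from 7 unigenes were higher and none was lower by limma, where 10.2% of all transcripts were higher and 11.2% lower. At an unadjusted p under 0.05, 14 members differed at 12 h, 1 of them lower, against 32.2% of all transcripts. The median change over the members was 1.99 at 6 h and 2.20 at 12 h on the log2 scale, against a median of -0.0016 and -0.043 over all transcripts. Changes on the log2(FPKM + 1) scale understate those of low transcripts. Without the 5 DAP library of 6 h, 11 members were higher and 2 lower at 6 h, and 13 were higher and 1 lower at 12 h. Of all 13342 transcripts, 1576 were then higher and 1261 lower at 6 h, and 1472 higher and 1639 lower at 12 h.

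In the 3 dehydrin, 3 ERD7 and 3 ERD4 transcripts, all 6 libraries of a cold duration were above all 6 control libraries. That made 9 of the 17 members at 6 h, where 6.09% of all transcripts were so placed, and the count was 9 at 12 h, where 4.83% were. Without the 5 DAP library of 6 h the count at 6 h was 10, ERD3 being the addition. The rule is easier to pass with fewer cold libraries, and its share over all transcripts was not counted. The count of 10 is therefore not set against the 6.09%.

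**Figure D1:**
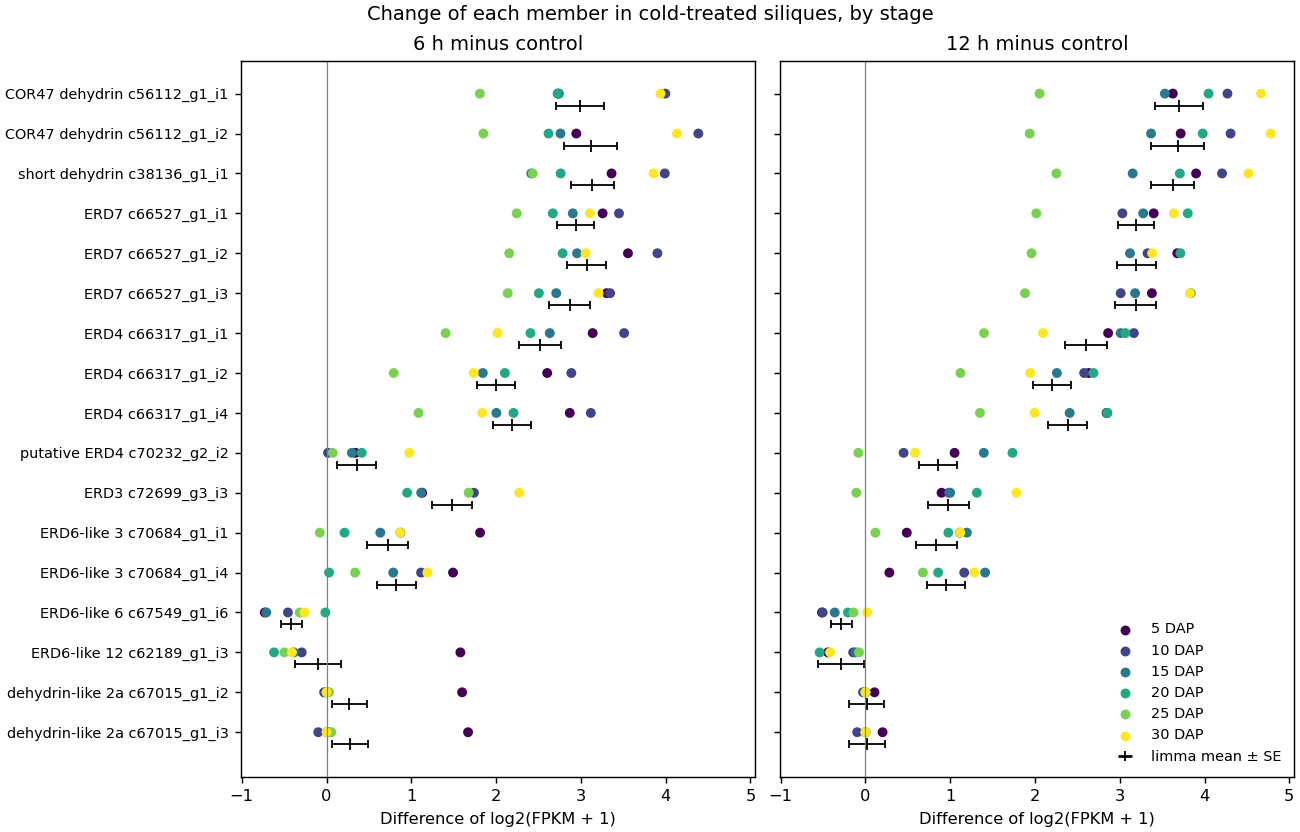
Difference of log2(FPKM + 1) between cold-treated and control siliques for the 17 members at 6 h (left) and 12 h (right). Each point is 1 stage, coloured from 5 to 30 DAP, and the bar under the points is the limma mean with its standard error. The 9 dehydrin, ERD7 and ERD4 transcripts lie right of 0 at every stage, and the 2 dehydrin-like 2a transcripts lie near 0 except at 5 DAP.

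The COR47 dehydrin was the most abundant member. Its unigene had 2 isoforms in the table, c56112_g1_i1 (433 bp) and c56112_g1_i2 (855 bp). The first had 46.7 FPKM in the lowest control library, a median of 116 FPKM over the 6 controls and 220 FPKM in the highest. At 6 h its lowest, median and highest levels were 445, 785 and 1702 FPKM, and at 12 h they were 527, 1576 and 2552 FPKM. No cold library overlapped with the controls.

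By stage, c56112_g1_i1 was highest at 15 DAP in control (220 FPKM) and at 12 h (2552 FPKM), and at 10 DAP at 6 h (1702 FPKM). In control it was lowest at 30 DAP, with 46.7 FPKM, and in both cold groups at 25 DAP, with 445 FPKM at 6 h and 527 FPKM at 12 h. The ratio to control at the same stage ran from 3.52 to 16.1 at 6 h (median 6.69) and from 4.18 to 25.9 at 12 h (median 14.6). Both ranges began at 25 DAP, and the 12 h range ended at 30 DAP, where control was lowest. In the limma fit its log2 level rose by 2.99 ± 0.28 at 6 h (SE here and after every ± sign, adjusted p = 4.62e-06) and by 3.70 ± 0.28 at 12 h (adjusted p = 8.48e-07). Among the changes of all transcripts, taken from the most raised down, that was rank 94 at 6 h and rank 22 at 12 h.

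The longer isoform, c56112_g1_i2, had 44.3 to 210 FPKM in control, 434 to 1787 FPKM at 6 h and 461 to 2174 FPKM at 12 h. It rose by 3.12 ± 0.31 at 6 h (adjusted p = 8.31e-06) and by 3.68 ± 0.31 at 12 h (adjusted p = 2.31e-06). The ratio of the first isoform to the second stayed between 0.865 and 1.25 over the 18 libraries, and their log2 levels correlated with r = 0.997. Reads that fit both isoforms were divided between them by estimation, so they are not independent measurements.

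A short dehydrin transcript, c38136_g1_i1 (229 bp), matched the same protein entry as c56112_g1_i1, over 33 amino acids. It had 21.97, 47.4 and 90.9 FPKM in the lowest, median and highest control library, 245, 410 and 651 FPKM at 6 h, and 264, 641 and 858 FPKM at 12 h. Cold and control libraries did not overlap. It rose by 3.14 ± 0.25 at 6 h (adjusted p = 1.15e-06) and by 3.62 ± 0.25 at 12 h (adjusted p = 4.56e-07). Its level stood at 0.297 to 0.703 of that of c56112_g1_i1 in the same library, and the log2 levels correlated with r = 0.982 over the 18 libraries.

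Among other named transcripts, the levels most like c56112_g1_i1 over the 18 libraries were those of 2 cold-regulated proteins, c53443_g1_i1 (Pearson's r 0.990) and c69711_g17_i1 (r 0.968), and of BN28a, c64555_g3_i2 (r 0.964), a small cold-induced hydrophilic protein of *Brassica napus*. For the short dehydrin they were c53443_g1_i1 (r 0.979), a stress responsive protein, c61995_g1_i1 (r 0.975), and c64555_g3_i2 (r 0.967). These correlations hold the difference between cold and control libraries and are given as a description.

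**Figure D2:**
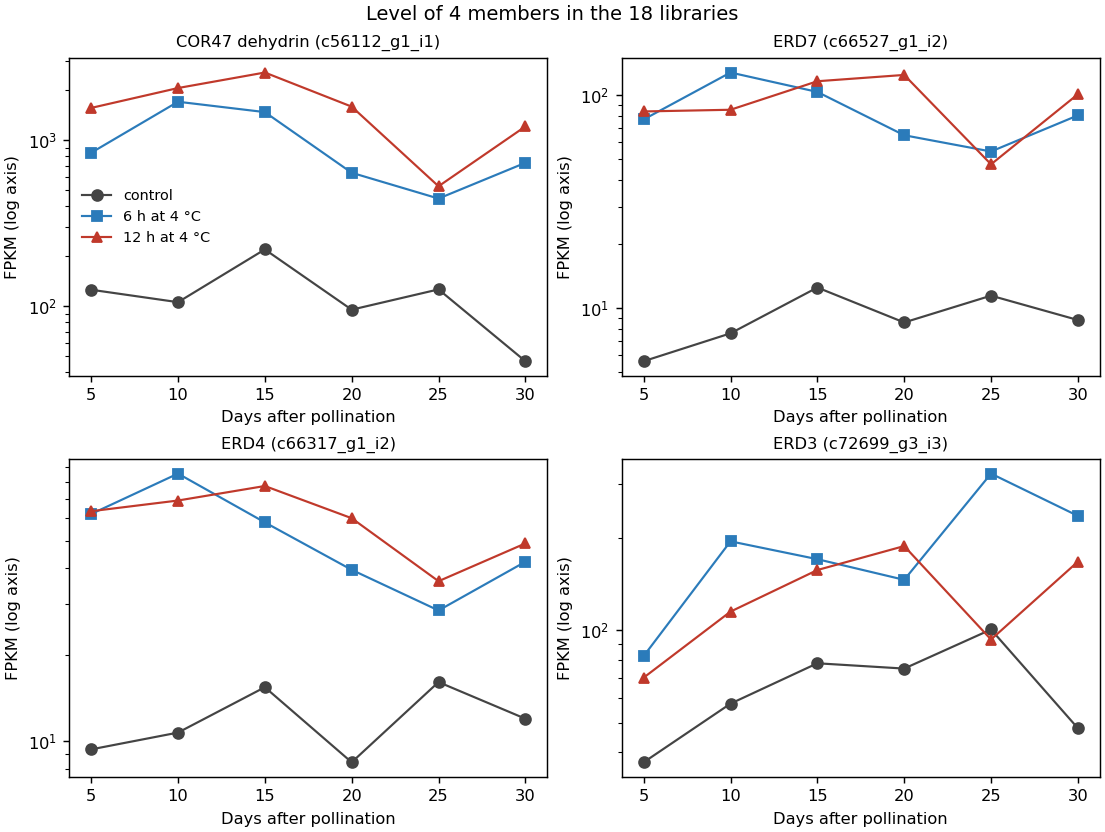
FPKM on a log axis against days after pollination for a COR47 dehydrin, an ERD7, an ERD4 and the ERD3 transcript, with 1 point per library and lines joining control, 6 h and 12 h libraries. The cold libraries of COR47, ERD7 and ERD4 lie above every control library, while ERD3 at 12 h meets its control at 25 DAP.

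ERD7 is a protein with a senescence domain that binds membrane lipids in Arabidopsis. All 3 isoforms of its unigene were in the table, and c66527_g1_i2 (1520 bp) was the most abundant. It had 5.63, 8.68 and 12.5 FPKM in the lowest, median and highest control library, 54.4, 78.6 and 128 FPKM at 6 h, and 47.3, 93.2 and 124 FPKM at 12 h. The lowest cold library of ERD7, 25 DAP at 12 h, was still above the highest control.

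The ratio of c66527_g1_i2 to its control ran from 4.75 at 25 DAP to 16.8 at 10 DAP at 6 h (median 8.72). At 12 h it ran from 4.14 at 25 DAP to 14.9 at 5 DAP (median 11.4). The transcript rose by 3.07 ± 0.23 at 6 h (adjusted p = 5.33e-07) and by 3.20 ± 0.23 at 12 h (adjusted p = 5.42e-07).

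The other ERD7 isoforms rose as well. The 2434 bp isoform, c66527_g1_i1, had 4.01 to 7.19 FPKM in control, 36.7 to 74.9 FPKM at 6 h and 31.2 to 88.7 FPKM at 12 h, and it rose by 2.94 ± 0.22 and 3.19 ± 0.22 at 6 h and 12 h (adjusted p = 4.91e-07 and 3.87e-07). The 2416 bp isoform, c66527_g1_i3, had 4.03 to 8.52 FPKM in control, 40.7 to 76.6 FPKM at 6 h and 33.9 to 107 FPKM at 12 h, and it rose by 2.87 ± 0.24 and 3.19 ± 0.24 (adjusted p = 1.53e-06 and 7.40e-07). All 3 have the same best hit and share reads, with r of 0.996 between the first and second and 0.998 between the third and first.

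The named transcripts most like c66527_g1_i2 were a pentatricopeptide repeat protein, c63718_g1_i1 (r 0.985), the stress responsive protein c61995_g1_i1 (r 0.977) and a putative β-amylase, c70856_g2_i2 (r 0.974), an enzyme that releases maltose from starch. ERD7 and COR47 levels correlated with r = 0.954 over the 18 libraries.

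ERD4 is a membrane protein of the DUF221 family, to which the OSCA calcium channels of Arabidopsis belong. Its unigene had 3 isoforms in the table, each matched over 723 amino acids. The most abundant, c66317_g1_i2 (2821 bp), had 8.43, 11.3 and 16.1 FPKM in the lowest, median and highest control library. At 6 h it had 28.5, 50 and 85.6 FPKM, and at 12 h 36.1, 61.5 and 77.5 FPKM. The cold libraries were all higher than the control libraries, and 25 DAP was the lowest stage in both cold groups and the highest in control.

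The ratio of c66317_g1_i2 to its control ran from 1.78 to 8.0 at 6 h (median 4.22) and from 2.25 to 7.09 at 12 h (median 5.74), lowest at 25 DAP both times. The transcript rose by 1.99 ± 0.22 at 6 h (adjusted p = 2.25e-05) and by 2.20 ± 0.22 at 12 h (adjusted p = 1.07e-05). The isoform c66317_g1_i1 rose by 2.52 ± 0.24 and 2.60 ± 0.24 at 6 h and 12 h (adjusted p = 5.90e-06 and 5.22e-06), with 5.66 to 10.6 FPKM in control, 29.6 to 85.7 FPKM at 6 h and 29.5 to 73.3 FPKM at 12 h. The isoform c66317_g1_i4 rose by 2.19 ± 0.23 and 2.38 ± 0.23 (adjusted p = 1.05e-05 and 5.82e-06), with 6.79 to 12.2 FPKM in control, 26.6 to 79.6 FPKM at 6 h and 32.1 to 69.0 FPKM at 12 h.

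ERD4 levels followed those of ERD7 (r 0.974) and COR47 (r 0.963) over the 18 libraries. The other named transcripts most like c66317_g1_i2 were the pentatricopeptide repeat protein c63718_g1_i1 (r 0.973), the cold-regulated protein c69711_g17_i1 (r 0.972) and Cor25, c53443_g1_i2 (r 0.971).

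A further unigene was annotated as a putative ERD4. Its transcript, c70232_g2_i2 (2781 bp), matched over 767 amino acids and was far lower. It had 0.38, 0.65 and 1.35 FPKM in the lowest, median and highest control library, 0.75, 1.2 and 1.99 FPKM at 6 h, and 1.02, 2.04 and 4.19 FPKM at 12 h. The groups overlapped, and its highest values were 3.58 FPKM at 15 DAP and 4.19 FPKM at 20 DAP, both at 12 h. The difference from control was 0.35 ± 0.23 at 6 h (adjusted p = 0.337). At 12 h it rose by 0.86 ± 0.23 (adjusted p = 0.0150).

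The 12 h call of the putative ERD4 was lost on leaving out 5 DAP (adjusted p = 0.0606), 15 DAP (0.0735) or 20 DAP (0.0647). It was also lost with a term for read class, the share of reads that passed the quality filter (0.17, adjusted p = 0.834). At 5 to 20 DAP the 12 h libraries were of another read class than the control and 6 h libraries, so read class and 12 h cannot be told apart there.

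ERD3, a protein with a methyltransferase domain, was the second most abundant family in control siliques. Its transcript, c72699_g3_i3, had 37.2, 66.3 and 101 FPKM in the lowest, median and highest control library, 82.4, 183 and 324 FPKM at 6 h, and 70.1, 136 and 188 FPKM at 12 h. It was above its control at 6 of 6 stages at 6 h and at 5 of 6 at 12 h. The exception was 25 DAP, with 93.3 FPKM at 12 h against 101 FPKM in control, a stage at which the 6 h library had the highest level of all, 324 FPKM.

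The ERD3 ratio to control ran from 1.95 to 4.91 at 6 h (median 2.72) and from 0.928 to 3.49 at 12 h (median 2.0), with both maxima at 30 DAP. It rose by 1.48 ± 0.24 at 6 h (adjusted p = 0.000504) and by 0.98 ± 0.24 at 12 h (adjusted p = 0.00975). The 12 h call was lost with the read class term (0.59, adjusted p = 0.403) and without the stage block (adjusted p = 0.0801). ERD3 correlated less with COR47 (r 0.634) and ERD7 (r 0.747) than those did with each other, differences that were not tested. The named transcripts most like it were a nodulin MtN21 family protein, c68765_g3_i4 (r 0.915), a protein kinase-like protein, c72802_g1_i5 (r 0.909), and a nitrate transporter, c47523_g1_i1 (r 0.890).

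ERD6 is a sugar transporter of Arabidopsis, and its relatives form a large family of monosaccharide carriers. The ERD6-like 3 unigene had 2 isoforms in the table. The isoform c70684_g1_i1 had 3.42, 4.43 and 8.80 FPKM in the lowest, median and highest control library, 4.63, 6.91 and 33.4 FPKM at 6 h, and 7.07, 9.49 and 12.7 FPKM at 12 h. The 33.4 FPKM belonged to the 5 DAP library that stood apart, and the other 5 libraries of 6 h had at most 9.72 FPKM and overlapped with the controls.

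It rose by 0.72 ± 0.24 at 6 h (adjusted p = 0.0461) and by 0.83 ± 0.24 at 12 h (adjusted p = 0.0230). Without the 5 DAP library of 6 h the change at 6 h was 0.47 (adjusted p = 0.0701). The 6 h call was lost under 12 of 16 alternatives (adjusted p 0.0283 to 0.730), leaving out 5, 10, 15, 20 or 30 DAP among them, and the 12 h call under 7 of 15 (0.00248 to 0.555), leaving out 10, 15, 20 or 30 DAP among them. Both calls were lost with the read class term (adjusted p = 0.0578 at 6 h and 0.271 at 12 h). The changes stayed between 0.39 and 0.88 at 6 h and between 0.62 and 0.98 at 12 h.

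The second isoform, c70684_g1_i4, had 2.23 to 8.86 FPKM in control, 2.96 to 26.7 FPKM at 6 h and 5.94 to 11.0 FPKM at 12 h, and it was above its control at every stage at both durations. It rose by 0.82 ± 0.22 at 6 h (adjusted p = 0.0166) and by 0.95 ± 0.22 at 12 h (adjusted p = 0.00790). Its 26.7 FPKM at 6 h was in the 5 DAP library that stood apart, and without that library the change at 6 h was 0.62 (adjusted p = 0.0345). The 6 h call was lost on leaving out 10 DAP (0.77, adjusted p = 0.0773) or 30 DAP (0.75, adjusted p = 0.0704), without the stage block (adjusted p = 0.242) and with 5 to 20 DAP alone (adjusted p = 0.119). The 12 h call was lost with the read class term (1.01, adjusted p = 0.116) and without the stage block (adjusted p = 0.162). Both calls were lost with 25 and 30 DAP alone (adjusted p = 0.402 at 6 h and 0.310 at 12 h). The named transcripts most like c70684_g1_i1 were a WRKY factor, c64763_g1_i1 (r 0.917), a mitogen-activated protein kinase kinase kinase, c63174_g1_i3 (r 0.914), and a nodulin MtN21-like transporter, c65100_g1_i6 (r 0.906).

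The remaining transcripts with ERD6-like names were low. The one named ERD6-like 6, c67549_g1_i6, had 0.46, 1.40 and 2.91 FPKM in the lowest, median and highest control library, 0.22, 0.87 and 1.36 FPKM at 6 h, and 0.48, 0.93 and 1.74 FPKM at 12 h. Its level in control was highest at 5 DAP (2.91 FPKM) and lowest at 30 DAP (0.46 FPKM), and it was below control at 6 of 6 stages at 6 h and at 5 of 6 at 12 h. It fell by 0.41 ± 0.13 at 6 h (adjusted p = 0.0295), the 1 member called lower, and the difference at 12 h was -0.28 ± 0.13 (adjusted p = 0.132). The 6 h call was lost without the stage block (adjusted p = 0.464) and on leaving out 10 DAP (0.0936) or 15 DAP (0.136).

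The one named ERD6-like 12, c62189_g1_i3, had 0.36 to 1.27 FPKM in control, 0.11 to 5.78 FPKM at 6 h and 0.23 to 0.67 FPKM at 12 h. The 5.78 FPKM was again the 5 DAP library, and the next highest 6 h library had 0.65 FPKM. Over all libraries the difference was -0.10 ± 0.27 at 6 h (adjusted p = 0.847) and -0.29 ± 0.27 at 12 h (adjusted p = 0.532). Without the 5 DAP library of 6 h it fell by 0.46 at 6 h (adjusted p = 0.00470) and by 0.29 at 12 h (adjusted p = 0.0328). With the whole 5 DAP stage left out the difference was -0.44 at 6 h (adjusted p = 0.00618) and -0.26 at 12 h (adjusted p = 0.0701), and no other of the 14 alternatives at 12 h gave a call.

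**Figure D3:**
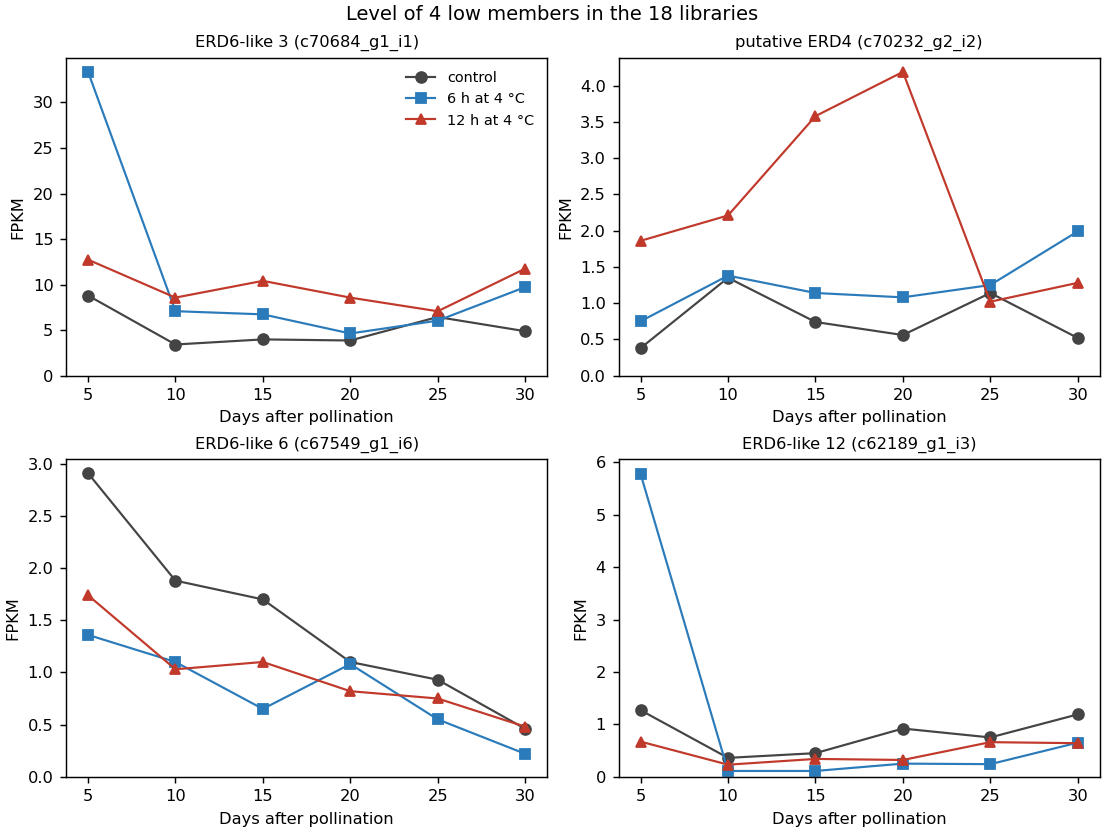
FPKM against days after pollination for ERD6-like 3, the putative ERD4 and the transcripts named ERD6-like 6 and ERD6-like 12, with 1 point per library and axes starting at 0. The 5 DAP library of 6 h is the highest for ERD6-like 3 (33.4 FPKM) and ERD6-like 12 (5.78 FPKM), and the putative ERD4 is highest at 12 h at 15 and 20 DAP.

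Dehydrin-like protein 2a was detected at over 0.15 FPKM in only 1 of the 18 libraries. Its isoforms c67015_g1_i2 (1809 bp) and c67015_g1_i3 (1842 bp) had 2.15 and 2.18 FPKM in the 5 DAP library of 6 h. In the other 17 libraries they had at most 0.12 and 0.15 FPKM, both at 12 h of 5 DAP, and most were listed at 0. They were the 2 members found among the 283 transcripts of that library alone.

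Transcripts with fungal locus tags in their best hit numbered 282 in the table, a list drawn up after the data were seen. Their summed level was 749 FPKM in the 5 DAP library of 6 h, against 0.06 to 54.5 FPKM (median 2.20) in the other 17 libraries. Of the 282, 277 were highest in that library, and the median correlation with c67015_g1_i2 was r = 0.985, which rests on that library. The named transcripts most like c67015_g1_i3, a glyoxylase I (c103566_g1_i1, r 0.999), a dienelactone hydrolase (c31039_g1_i1, r 0.998) and a short chain dehydrogenase (c88534_g1_i1, r 0.998), had at most 1.28, 2.89 and 1.0 FPKM. The organism from which the dehydrin-like 2a transcripts came was not tested.

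**Figure D4:**
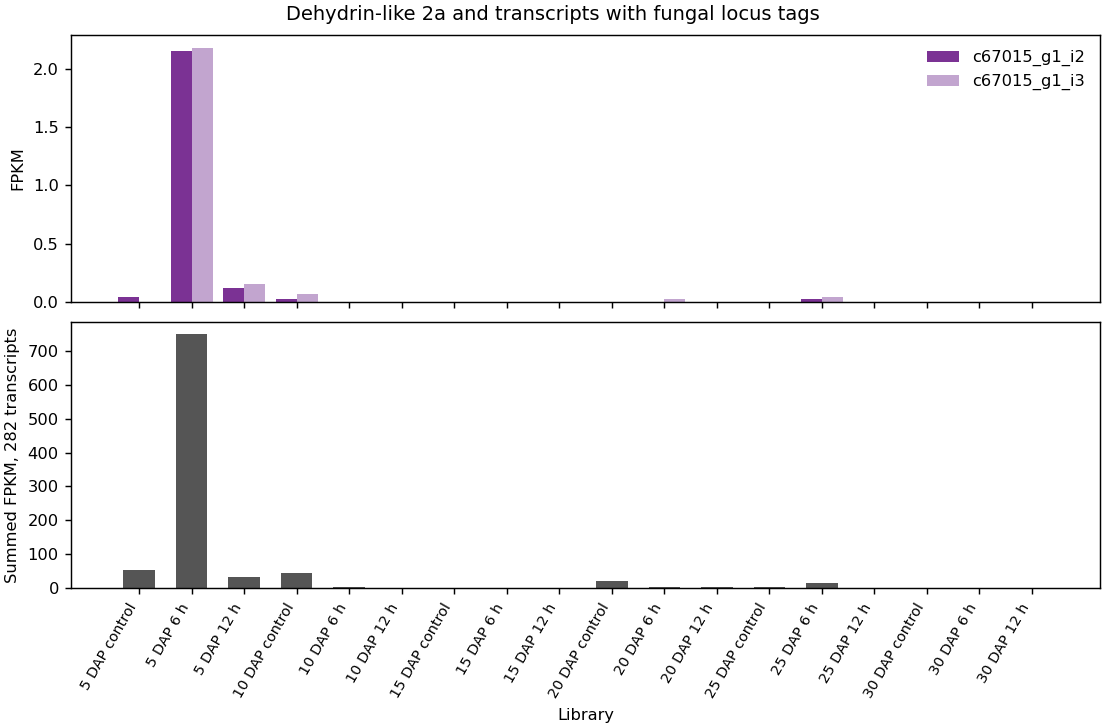
FPKM of the dehydrin-like 2a isoforms (upper bars) and the summed FPKM of the 282 transcripts with fungal locus tags (lower bars) in each of the 18 libraries. Both are highest in the 5 DAP library of 6 h, at 2.15 and 2.18 FPKM and at 749 FPKM.

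The number of strongly raised members differed between stages. At 6 h, members at least 4-fold above control on the FPKM + 1 scale numbered 9 at 5 DAP (6.55% of all transcripts), 9 at 10 DAP (3.73%), 8 at 15 DAP (3.22%), 9 at 20 DAP (2.34%), 4 at 25 DAP (2.73%) and 8 at 30 DAP (3.45%). At 12 h they numbered 9 at 5 DAP (2.68%), 9 at 10 DAP (2.19%), 9 at 15 DAP (3.32%), 9 at 20 DAP (3.19%), 3 at 25 DAP (3.76%) and 7 at 30 DAP (3.32%). The 25 DAP siliques had the fewest at both durations. The seed and embryo markers at 25 DAP summed to 245 FPKM in control, 330 FPKM at 6 h and 369 FPKM at 12 h, the only stage at which they were higher in cold. The pod wall markers summed there to 38.1 FPKM in control, 18.4 FPKM at 6 h and 105 FPKM at 12 h, the last being the highest of the 18 libraries, and the other 12 h libraries had 9.54 to 40.2 FPKM. The part of these marker lists in the smaller changes was not tested, nor was whether they follow tissue or expression. Of the 9 dehydrin, ERD7 and ERD4 transcripts, each had its smallest change at 25 DAP at both durations, except the short dehydrin at 6 h, whose smallest change was at 15 DAP. With 1 library per stage and duration, this had no replicate check in these libraries. The paper also ran qPCR on 3 biological replicates, with primers for c56112_g1_i1 (COR47) and c66527_g1_i2 among others. It reports both as inducible by cold at every stage, and its qPCR values by stage were not used here.

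Late (20, 25 and 30 DAP) and early (5, 10 and 15 DAP) siliques were compared for the size of the cold effect, averaged over 6 h and 12 h. In the late siliques 10 members were higher in cold and none lower by limma, where 7.70% of all transcripts were higher and 5.55% lower. At an unadjusted p under 0.05, 11 were higher and none lower, against 24.0% of all transcripts in either direction. In the early siliques 12 were higher and 1 lower, where 10.6% were higher and 7.44% lower. The difference between the phases passed the limma test for 0 of 17 members and for 0 of all transcripts (0%). At an unadjusted p under 0.05 it did for 2 members, both ERD4 isoforms, and for 5.61% of all transcripts. The 6 h and 12 h changes of a stage share a control but entered this fit separately. The SEs and unadjusted p of the phase difference may therefore be too small. The late minus early difference in cold effect was -0.99 ± 0.34 for ERD4 c66317_g1_i1 (adjusted p = 0.755), -0.58 ± 0.38 for ERD7 c66527_g1_i2 (adjusted p = 0.965) and -0.28 ± 0.52 for COR47 c56112_g1_i1 (adjusted p = 0.976).

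Siliques after 12 h and 6 h of cold were also set against each other. By limma, 0 of 17 members differed between 12 h and 6 h at an adjusted p under 0.05, where 1.29% of all transcripts were higher and 3.62% lower at 12 h. At an unadjusted p under 0.05, 2 members did, against 14.9% of all transcripts. COR47 c56112_g1_i1 was one of them, higher at 12 h than at 6 h at 6 of 6 stages by 1.19 to 2.50 times (median 1.69), and its difference was 0.71 ± 0.28 (adjusted p = 0.227). The putative ERD4 was the other, at 0.50 ± 0.23 (adjusted p = 0.318). The short dehydrin differed by 0.49 ± 0.25 (adjusted p = 0.417) and was higher at 12 h at 5 of 6 stages, and ERD3 differed by -0.50 ± 0.24 (adjusted p = 0.359) and was lower at 12 h at 5 of 6. With the read class term the differences were 0.43 for COR47 c56112_g1_i1 (adjusted p = 0.884), 0.24 for the short dehydrin (adjusted p = 0.974), -0.89 for ERD3 (adjusted p = 0.374) and -0.19 for the putative ERD4 (adjusted p = 0.956). Without 25 DAP the ERD3 difference was -0.25 (adjusted p = 0.600).

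Late and early siliques were also compared for level, on the mean of the 3 libraries of each stage. None of the 17 members differed at an adjusted p under 0.05 by limma, and 3 were lower in late siliques at an unadjusted p under 0.05, against 28.0% of all transcripts in either direction. At the adjusted threshold 3.43% of all transcripts were higher and 0.277% lower in late siliques. COR47 c56112_g1_i1 differed by -0.97 ± 0.31 (adjusted p = 0.109), the short dehydrin by -0.91 ± 0.23 (adjusted p = 0.0728) and ERD3 by 0.48 ± 0.34 (adjusted p = 0.370). The median over all transcripts was 0.0053, and -0.13 after rescaling the libraries by median ratios. Each stage mean held the cold libraries too, so these levels mix stage with the cold response. In control libraries alone the differences were -0.78 for COR47 c56112_g1_i1 (adjusted p = 0.348) and -0.74 for the short dehydrin (adjusted p = 0.350). For ERD3 it was 0.37 (adjusted p = 0.572). No member was called there, where 535 of all transcripts were higher and 80 lower.

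Other genes of the cold and drought pathways were counted from word and ontology lists that left the members out. Their counts stand against the shares of all transcripts, 12.6% higher and 9.21% lower at 6 h and 10.2% higher and 11.2% lower at 12 h. Of 6 CBF and DREB1 transcripts, which code for the activators of the cold regulon, 4 rose at 6 h and 4 at 12 h and none fell by limma, with median changes over the list of 1.25 and 1.05. That was 66.7% of the list at each duration, and its 6 transcripts came from 5 unigenes. A DREB1B transcript, c106397_g1_i1, had a median of 0.17 FPKM in control, 5.14 FPKM at 6 h and 2.56 FPKM at 12 h. A CBF-like transcript, c49245_g1_i1, was listed at 0 as its control median and had medians of 2.84 FPKM at 6 h and 3.14 FPKM at 12 h.

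Of 13 transcripts of other cold-regulated proteins, 12 rose at 6 h (92.3%) and 13 at 12 h (100%), with median changes of 2.92 and 2.22. These 13 came from only 5 unigenes, and isoforms of a unigene share reads. BN28a c64555_g3_i1 had medians of 9.16 FPKM in control, 108 FPKM at 6 h and 323 FPKM at 12 h, and it rose by 3.63 ± 0.43 at 6 h (adjusted p = 3.69e-05) and by 5.12 ± 0.43 at 12 h (adjusted p = 2.14e-06). Cold regulated protein 27, c64594_g1_i2, rose by 3.60 ± 0.15 at 6 h (adjusted p = 1.59e-09) and by 1.67 ± 0.15 at 12 h (adjusted p = 2.87e-06), with medians of 2.20 FPKM in control, 37.4 FPKM at 6 h and 9.10 FPKM at 12 h.

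The other late embryogenesis abundant proteins, the wider class to which dehydrins belong, numbered 14 transcripts, of which 2 rose at 6 h (14.3%) and 1 at 12 h (7.14%), with median changes of -0.091 and 0.049. These shares were near those of all transcripts, and the 14 transcripts came from 8 unigenes. The LEA14 transcript c52045_g1_i1, also the only transcript of the desiccation list, had medians of 8.05 FPKM in control, 123 FPKM at 6 h and 123 FPKM at 12 h, and it rose by 3.48 ± 0.36 (adjusted p = 1.16e-05) and 3.61 ± 0.36 (adjusted p = 9.85e-06). The ontology list of cold acclimation held 30 transcripts, 9 of them higher (30%) and 1 lower (3.33%) after 6 h of cold, and 6 higher (20%) and 2 lower (6.67%) after 12 h. Response to water deprivation held 531, with 103 higher (19.4%) and 38 lower (7.16%) after 6 h (median change 0.088), and 85 higher (16.0%) and 70 lower (13.2%) after 12 h (median change -0.0078). Response to abscisic acid held 446, with 130 higher (29.1%) and 28 lower (6.28%) after 6 h (median change 0.10), and 116 higher (26.0%) and 45 lower (10.1%) after 12 h (median change 0.025).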

How the data were processed

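The authors filtered reads (NGS QC Toolkit), assembled them without a genome (Trinity), mapped them back (Bowtie2) and computed transcript abundance (RSEM, TMM scaling). The authors deposited FPKM per transcript, only for transcripts that edgeR called different between some pair of single libraries. The deposited annotation holds each transcript's best hit with its bit score, domains and ontology terms, and the score was not used in any test. Versions of the authors' RSEM and edgeR were not given in the sources used here. FPKM are not counts, so limma (version 3.58.1, R 4.3.3) was run on log2(FPKM + 1) over all 13342 transcripts and 18 libraries, with stage as a block and no filter on low values. Stage pairs the libraries by the labels. The phase difference nested duration in phase, and levels of late and early stages were compared on 6 stage means. Tables and figures were made with Python 3.11.15, pandas 2.3.3, numpy 2.4.6 and matplotlib 3.10.9. Correlations are Pearson's r of log2(FPKM + 1).

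Every member is named. Of other transcripts, the 3 most alike to the most abundant member of each unigene and up to 4 called transcripts with the smallest p per list could be named. The members and lists were chosen with earlier results of these data known. The fits were tested on simulated data. Alternatives were the pseudocount (0.1), a mean of at least 1 FPKM, median-ratio scaling, isoforms summed per unigene, a variance trend, no stage block, read class (over or under 90% of reads kept), subsets of stages, control libraries alone for the comparison of late and early levels, each stage left out and, chosen after seeing the data, the 5 DAP library of 6 h left out.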

Additional observations from a re-analysis of the deposited data

Results flagged for a closer look

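The 6 stage-wise changes of each member at each duration were searched for 1 stage far from the other 5 (Dixon's ratio over 0.625), and 6 of 34 sets held such a stage. Chance gives about 1 in 20 for independent sets, which these were not: durations share controls, isoforms share reads, and 4 of the 6 belong to the 2 isoforms of dehydrin-like 2a, listed at or near 0 FPKM at the other stages, so the count is not read against that rate. For the transcript named ERD6-like 12 (c62189_g1_i3), the change at 6 h was 1.58 on the log2 scale at 5 DAP, and -0.62 to -0.29 at the other stages. For ERD7 (c66527_g1_i2), the change at 12 h was 1.96 at 25 DAP, and 3.12 to 3.71 at the other stages. For dehydrin-like 2a, c67015_g1_i2 changed by 1.60 at 6 h and by 0.11 at 12 h at 5 DAP, and by -0.03 to 0.03 at 6 h and -0.03 to 0.00 at 12 h at the other stages. Its isoform c67015_g1_i3 changed by 1.67 at 6 h and by 0.20 at 12 h at 5 DAP, and by -0.10 to 0.06 at 6 h and -0.10 to 0.00 at 12 h elsewhere. The ERD6-like 12 value and the 6 h values of dehydrin-like 2a come from the 5 DAP library of 6 h, which stood apart from the other libraries.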

How the results depend on the processing

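The 9 dehydrin, ERD7 and ERD4 transcripts passed the limma test at 6 h and 12 h under every alternative run except the fit on 25 and 30 DAP alone, which has 6 libraries and called 0 of all transcripts in either direction at 6 h and at 12 h, so its counts say nothing particular about the members. There 0 members were higher and 0 lower at 6 h (10 higher and 0 lower at an unadjusted p under 0.05), and 0 were higher at 12 h (10 at an unadjusted p), with adjusted p of 0.176 to 0.338 at 6 h and 0.166 to 0.296 at 12 h for those 9. The share of all transcripts at an unadjusted p was not counted for the alternatives, so unadjusted counts of members here are not read as a result. Summed per unigene, 6 of 10 were higher at 6 h and 7 of 10 at 12 h, since isoforms then count once. Of all 9446 unigenes, 1129 were higher at 6 h and 902 at 12 h. Members lower at 6 h numbered 0 with a mean of at least 1 FPKM, with no replicate block and with 5 to 20 DAP alone (1, 0 and 1 at an unadjusted p), 2 without the 5 DAP library of 6 h, and 0 to 2 when a stage was left out (0 without 10 or 15 DAP, 2 without 5 DAP). Members lower at 12 h numbered 1 without the 5 DAP library of 6 h. Among all transcripts tested, those lower at 6 h numbered 1022 with a mean of at least 1 FPKM. They numbered 455 with no replicate block and 561 with 5 to 20 DAP alone. Without 5, 10 or 15 DAP they numbered 1244, 782 and 859. With no replicate block (the stage pairing dropped), 10 members were higher at 6 h and 10 at 12 h. Of all 13342 transcripts, 1033 were then higher at 6 h and 805 at 12 h.

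Values that turned round were the ERD6-like 12 difference at 6 h with 5 to 20 DAP alone (0.070), the putative ERD4 difference between 12 h and 6 h with the read class term (-0.19) and the phase difference in the cold effect on COR47 c56112_g1_i1, which ran from -0.82 to 0.36 when a stage was left out (0.049 without 10 DAP, 0.36 without 25 DAP). None of these had been called, and the causes were not tested. Of the other values for single members, 530 kept their direction and their side of the threshold, 60 lost the call and 3 gained it. With a mean of at least 1 FPKM, ERD6-like 12 and both dehydrin-like 2a transcripts dropped out of the fit. The deposited FPKM carry no counts, so depth could not be weighed for transcripts under about 1 FPKM.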
